A study of Mus musculus with 16 samples.

Results

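The genes described here encode the acetylcholine-activated potassium channel of the atrium and its closest regulators. They are the channel subunits Kcnj3 and Kcnj5, the muscarinic receptor Chrm2, and the regulators of G protein signalling Rgs4 and Rgs6. The 5 genes were chosen by name, with earlier results of these data known, and the fall of Kcnj3 on day 1 was one of those results. They are 5 of 18418 genes tested, out of 30142 genes that the annotation names on this array with a single symbol. Each had exactly 1 row with that symbol, so the rule that takes the row with the highest mean over all arrays decided nothing, and all 5 passed the filter on low values.

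Acetylcholine released by the vagus nerve slows the heart and shortens the atrial action potential through this channel. The M2 receptor, product of Chrm2, activates an inhibitory G protein, whose beta and gamma subunits bind the channel and open it. The atrial channel is a mixed tetramer of the products of Kcnj3 (GIRK1) and Kcnj5 (GIRK4). RGS4 and RGS6 speed the hydrolysis of GTP by the G protein alpha subunit, which ends the signal, and RGS6 works as a complex with the beta subunit Gβ5, product of Gnb5.

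The RNA came from atrial tissue of male C57BL/6 wild-type mice, 10 weeks old at surgery. There were 4 arrays of sham-operated mice (sham 1 to 4) and 4 each of mice killed 1, 3 or 7 days after the left anterior descending coronary artery was tied off (arrays 11 to 14, 31 to 34 and 71 to 74), which infarcts the left ventricle. When the sham tissue was taken is not stated, beyond a series title that speaks of 0 days, and no label says which part of the atria was sampled. Values are log2 signals as deposited. Since the scaling behind them is not known, differences are given in log2 units and not as folds.

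In the sham arrays the atrial markers Myl7 and Sln, a myosin light chain and a calcium pump regulator of atrial muscle, had mean signals of 17.97 each, while Myl4 had 7.02 and Nr2f2 5.77. The ventricular markers Myl3 and Myh7 were detected as well, at 16.15 and 13.55. The others of that list were lower, with Myl2 at 9.79, Hey2 at 6.35 and Irx4 at 5.41. The atrial peptide gene Nppa stood at the ceiling of the scale, and 2 other atrial markers, Nr2f1 and Bmp10, were not above the median of the negative controls in sham. Day 1 array 13 and day 3 array 31 stood apart. A measure of how well positive and negative control rows were separated, where 1 is complete, was 0.755 and 0.743 on them, against 0.793 to 0.825 on the other 14 arrays. Both arrays had the lowest value of their group for 5 of the 5 genes. On array 31 a list of 9 cardiomyocyte genes had a mean of 14.54, against 16.26 to 16.28 on the other day 3 arrays. A list of 6 neutrophil genes had 10.93 on array 31, against 6.48 to 6.60. The day 1 arrays had 15.53 to 16.39 for the cardiomyocyte list and 10.37 to 11.93 for the neutrophil list. Both arrays were kept, and results that turn on them are given without them as well.

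After infarction the channel genes fell and Rgs4 first fell and then rose. Against sham, Kcnj5, Rgs4 and Rgs6 were called lower on day 1, beside Kcnj3, whose day 1 fall is a description here, and 3 genes were called lower on day 3 (Kcnj3, Kcnj5 and Chrm2). On day 7 Kcnj5 was called lower and Rgs4 higher. The threshold for a call was an adjusted p under 0.05 in limma, fitted across all tested genes, and p-values measure the spread between these arrays, since no label says how many animals lie behind them. Such calls were common in this tissue. On day 1, 22.2% of all tested genes were called lower and 24.9% higher, on day 3 20.2% and 23.5%, and on day 7 9.92% and 14.9%. The comparisons of the 3 days with sham share the same 4 sham arrays, so the days are set side by side and are not independent of one another. Where all arrays of a group are said to lie below or above another group, the share of all genes that do so is not given. Such statements only describe the arrays.

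**Figure D1:**
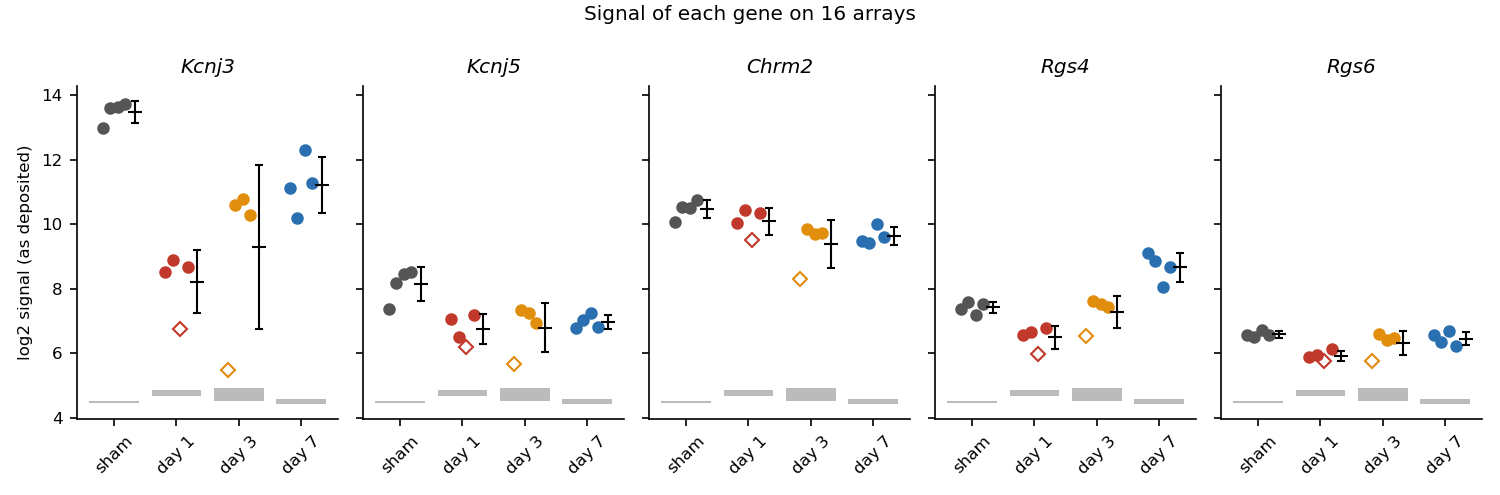
Log2 signal, as deposited, of each of the 5 genes on the 16 arrays by group. Points are arrays, open diamonds mark day 1 array 13 and day 3 array 31, black bars give mean ± SD (n = 4), and grey boxes span the median negative control signal of each group's arrays. Every infarction array lies below every sham array for Kcnj3 and Kcnj5, and all 4 day 7 arrays lie above sham for Rgs4. The share of all genes with such separation is not given.

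Kcnj3 encodes the subunit GIRK1, which is not able to reach the cell surface without a partner and gives the atrial channel much of its current. Its signal was 12.99, 13.61, 13.62 and 13.71 in sham, and 8.53, 8.89, 6.77 and 8.68 on day 1. On day 3 it was 5.50, 10.59, 10.78 and 10.29, and on day 7 it was 11.12, 10.19, 12.31 and 11.29. All 12 infarction arrays lay below the lowest sham array. On day 3, 3 arrays were close together and array 31 lay far below them.

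The group means of Kcnj3 were 13.48 ± 0.33 in sham, 8.22 ± 0.98 on day 1, 9.29 ± 2.54 on day 3 and 11.23 ± 0.87 on day 7 (SD, n = 4). The day 1 difference of −5.26 ± 0.94 (SE) was the lowest of all 18418 tested genes. Because this fall was known when the gene was chosen, it is a description here. The differences of Kcnj3 on days 3 and 7 use the same sham values, so their p-values are not free of that choice. Kcnj3 ranked 5 from the bottom on day 3, with a difference of −4.19 ± 0.94 and an adjusted p of 0.00242 in limma. Without array 31 the day 3 difference was −2.93 ± 0.49 (adjusted p 0.000264). On day 7 the difference was −2.25 ± 0.94 and the adjusted p was 0.0989 (95% interval −4.27 to −0.24), although the 4 arrays still lay below sham. That SE carries the spread of day 3. Without array 31 the same day 7 difference had an SE of 0.46 and an adjusted p of 0.00173 in limma, and with only the day 7 and sham arrays in the fit the adjusted p was 0.00203. Kcnj3 lay higher on day 7 than on day 1, by 3.01 ± 0.94 with no overlap of the groups, which is again a description because the low day 1 values were known. In whole tissue a smaller share of a cell type and less RNA in each cell cannot be told apart, here or for the other genes.

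Kcnj3 lies on chromosome 2 (55411798 to 55598145, GRCm38.p6). The RefSeq start behind its promoter window lies inside that span, so only 30 bases of it are shown. They hold the 1 motif match found among the 5 genes, the core motif of the T-box factor TBX5. Its letters AGGTGT are read on the other strand, and capitals mark the match at −38 to −33 from that start, within chr2:55435920-55435949 on the plus strand.
Kcnj3, −50 to −21: accagcacacacACACCTcattctggttgc
Of 32851 promoter windows of 250 bases in RefSeq, 11.8% hold this motif on either strand, and the match is a description only.

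Kcnj5 encodes GIRK4, the partner that carries GIRK1 to the membrane. It read 7.39, 8.19, 8.47 and 8.53 in sham and 7.08, 6.50, 6.22 and 7.19 on day 1. On day 3 it read 5.68, 7.35, 7.25 and 6.93, and on day 7 it read 6.78, 7.04, 7.27 and 6.81. All 12 infarction arrays were below sham, although the highest day 3 array and sham 1, the lowest sham array, nearly met. The signal was low for this array. Between 64.6% and 95.9% of the negative control rows of an array lay below it.

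Kcnj5 fell on each day. Its difference from sham was −1.39 ± 0.35 on day 1 (adjusted p 0.00575), −1.34 ± 0.35 on day 3 (adjusted p 0.00674) and −1.17 ± 0.35 on day 7 (adjusted p 0.0257, limma). The day 7 call was lost with each array's median subtracted (adjusted p 0.0743) and when any 1 of sham 2, 3 or 4 or day 7 arrays 71, 72 or 74 was left out (adjusted p 0.0503 to 0.0756). Between the days its differences were 0.06 ± 0.35 from day 1 to day 3 and 0.23 ± 0.35 from day 1 to day 7 (95% interval −0.53 to 0.98), and neither was called.

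The log2 signals of the 2 subunit genes changed by unequal amounts, from unequal heights. In sham Kcnj3 lay 8.52 to 9.18 above the median negative control and Kcnj5 2.92 to 3.99, so Kcnj5 had less room to fall. The part of this in the values below was not tested. The difference between the log2 signals of Kcnj3 and Kcnj5 was taken on each array, and its change from sham was tested with an exact two-sided permutation test, for which 0.0286 is the smallest p with 4 against 4 arrays. The change of Kcnj3 minus that of Kcnj5 was −3.87 on day 1 (a description, as above), −2.86 on day 3 and −1.09 on day 7. The exact p was 0.0286 on day 3 and on day 7, and 0.0429 after adjustment over 6 such tests. The 6 tests include the day 1 test of this pair, also at 0.0286, and counting it lowers the adjusted p of the others. The sham values behind the known day 1 fall of Kcnj3 also enter the day 3 and day 7 tests. The p-values of these tests are therefore not free of that choice. On all 12 infarction arrays the difference was below that of every sham array. The day 7 value was −0.72 without array 72 (exact permutation test, adjusted p 0.0429). With any 1 sham array left out the values stayed at −2.92 to −2.77 on day 3 and −1.15 to −0.998 on day 7. The adjusted p of the permutation test was then 0.0571 to 0.0857 and 0.0686 to 0.0857, so neither call held.

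**Figure D2:**
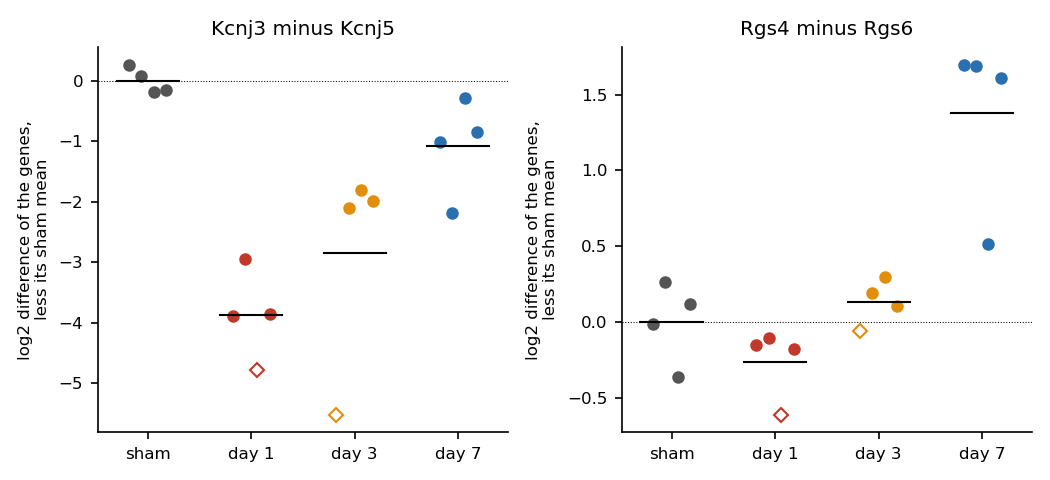
Difference of the log2 signals of 2 genes on each array, less its mean in sham, for Kcnj3 minus Kcnj5 on the left and Rgs4 minus Rgs6 on the right. Points are arrays, open diamonds mark arrays 13 and 31, and black lines are group means of 4 arrays. Kcnj3 minus Kcnj5 is lowest on day 1 on average (−3.87) and −1.09 on day 7, and Rgs4 minus Rgs6 lies above sham on day 7 (1.38). Kcnj5 lay nearer background than Kcnj3 in sham and had less room to fall.

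Chrm2 encodes the M2 receptor through which acetylcholine reaches the channel. Its signal was 10.09, 10.54, 10.51 and 10.76 in sham and 10.05, 10.45, 9.50 and 10.36 on day 1. It was 8.30, 9.84, 9.69 and 9.74 on day 3 and 9.49, 9.43, 10.02 and 9.60 on day 7. The day 1 arrays overlapped sham, while all day 3 and day 7 arrays were below it.

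On day 1 Chrm2 differed from sham by −0.39 ± 0.31 (adjusted p 0.315, 95% interval −1.06 to 0.29), which was not called, although after quantile normalisation it was (−0.90, adjusted p 0.0443). It fell on day 3, with a difference of −1.09 ± 0.31 (adjusted p 0.0117, limma). Without array 31 that fall was −0.72 ± 0.22 (adjusted p 0.0154). On day 7 the difference was −0.84 ± 0.31 with an adjusted p of 0.0658, and without array 31 the adjusted p was 0.00553. From day 1 to day 3 the difference was −0.70 ± 0.31 (adjusted p 0.218). It was called in limma without arrays 13 and 31, at −0.53 and an adjusted p of 0.0417, as was the difference from day 1 to day 7 (−0.65, adjusted p 0.00825, against −0.45 and 0.266 with all arrays).

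Rgs4 encodes a small RGS protein that shortens signals of inhibitory and Gq-type G proteins. It read 7.39, 7.60, 7.20 and 7.52 in sham and 6.57, 6.67, 5.99 and 6.79 on day 1. On day 3 it read 6.55, 7.63, 7.54 and 7.43, and on day 7 it read 9.10, 8.87, 8.05 and 8.68. The day 1 arrays lay wholly below sham and the day 7 arrays wholly above it. On day 3, 3 of the 4 arrays lay near sham and array 31 lay below.

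Rgs4 fell on day 1 (−0.92 ± 0.26, adjusted p 0.0112) and rose by 1.25 ± 0.26 on day 7 (adjusted p 0.00308, limma). On day 3 its difference was −0.14 ± 0.26 (95% interval −0.70 to 0.42), and 0.11 ± 0.22 without array 31. It was the only gene of the set called between day 3 and day 7, with 1.39 ± 0.26 (adjusted p 0.0038), in a comparison where 4.06% of tested genes were called higher and 8.57% lower. From day 1 to day 7 it rose by 2.17 ± 0.26 (adjusted p 4.88e-05, limma). Each of these calls held with any 1 array left out.

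The gene lies on the minus strand of chromosome 1 (169741477 to 169747642, GRCm38.p6). Its RefSeq promoter window is shown because Rgs4 alone of the set rose above sham. The window is free of the annotated gene, at chr1:169747643-169747892, given 5′ to 3′ on the minus strand and ending at the base before the start.
Rgs4: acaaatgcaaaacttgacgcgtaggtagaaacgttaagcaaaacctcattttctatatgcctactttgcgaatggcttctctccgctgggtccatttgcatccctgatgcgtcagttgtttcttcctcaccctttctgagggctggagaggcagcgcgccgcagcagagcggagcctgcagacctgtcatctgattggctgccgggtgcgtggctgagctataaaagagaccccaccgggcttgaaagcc
It has no capitals because none of the 5 motifs searched on both strands occurs in it. These were the GATA site AGATAA, the TBX5 motif above, the NKX2-5 site TNAAGTG, the nuclear receptor motif AGGTCA and the E-box CACGTG, held by 9.99%, 11.8%, 10.1%, 14.0% and 6.02% of all windows. No overlap between motifs arose, since there was a single match in the set. The window holds 13 CpG pairs and 53.6% G and C, against medians of 6 and 52.4% over all windows. The windows of Kcnj5, Chrm2 and Rgs6 had no match and are not printed, because they overlap the annotated genes.

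Rgs6 encodes the RGS protein that forms a stable complex with Gβ5 and is known in mice to limit the slowing of the heart by the vagus. Its signal was 6.57, 6.50, 6.73 and 6.57 in sham and 5.89, 5.95, 5.77 and 6.14 on day 1. It was 5.77, 6.61, 6.42 and 6.49 on day 3 and 6.57, 6.34, 6.71 and 6.23 on day 7. All day 1 arrays lay below sham, and the later arrays overlapped it. The signal was low, with 66.2% to 88.0% of negative control rows below it.

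Rgs6 fell on day 1 (−0.66 ± 0.16, adjusted p 0.00448, limma). It differed from sham by −0.27 ± 0.16 on day 3 (95% interval −0.61 to 0.07) and by −0.13 ± 0.16 on day 7 (95% interval −0.47 to 0.21). It was higher on day 7 than on day 1 by 0.53 ± 0.16 (adjusted p 0.0265), a call lost when any 1 of arrays 11, 13, 71 or 73 was left out (adjusted p 0.0571 to 0.0796). Rgs4 and Rgs6 parted on day 7. The change of Rgs4 exceeded that of Rgs6 by 1.38 (exact two-sided permutation p 0.0286, 0.0429 after adjustment over 6 tests), higher on 4 of 4 day 7 arrays. The 6 tests include the known day 1 test of Kcnj3 minus Kcnj5, and counting it lowers this adjusted p. With any 1 sham array left out the value of Rgs4 minus Rgs6 was 1.26 to 1.47 and the adjusted p was 0.0686 to 0.0857. It was −0.26 on day 1 and 0.13 on day 3, with exact p-values of 0.2 and 0.486 (adjusted 0.24 and 0.486).

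Between day 1 and day 7 Rgs4 and Rgs6 were called higher on day 7 and neither Kcnj5 nor Chrm2 was called, leaving aside Kcnj3 with its known day 1 values, where 13.7% of all tested genes were called higher and 12.7% lower. Between day 1 and day 3 limma called 0 of the 5 genes. In that comparison 5.95% of tested genes were called higher and 2.16% lower. Without arrays 13 and 31 it called Rgs4 higher on day 3 by 0.86 and Rgs6 by 0.51, and Chrm2 lower (−0.53), with adjusted p of 0.00692, 0.00525 and 0.0417. Kcnj3 then lay higher on day 3 by 1.85 ± 0.39, a description. Means without those arrays were 8.70 ± 0.18 on day 1 and 10.55 ± 0.25 on day 3 for Kcnj3 (SD, n = 3).

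**Figure D3:**
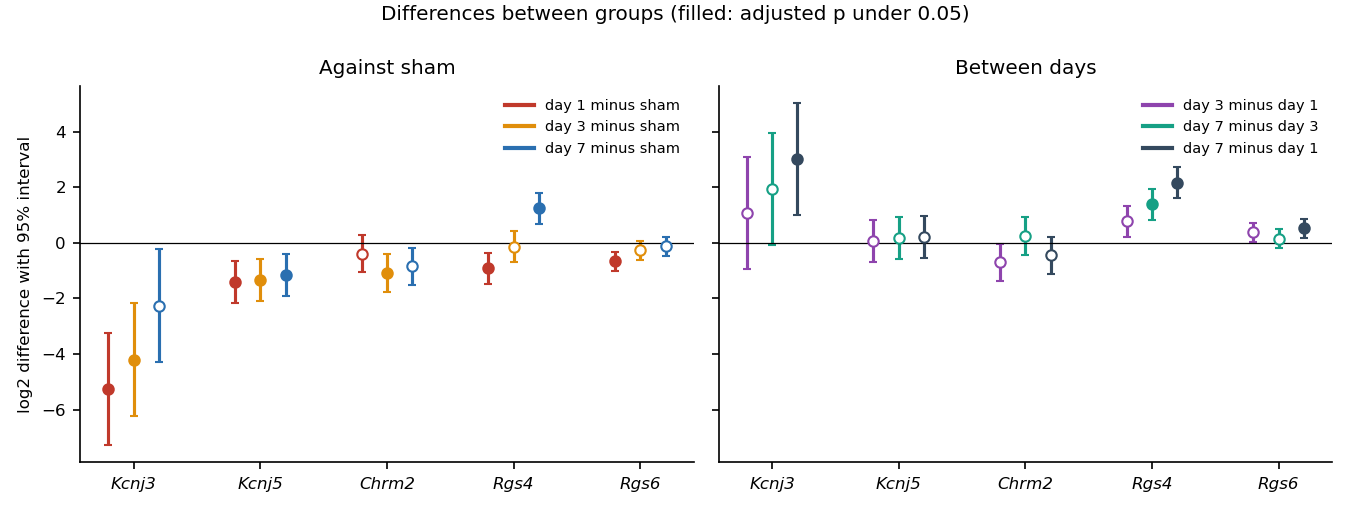
Log2 differences between groups for the 5 genes, each infarction day minus sham on the left and day minus day on the right, with 95% intervals from limma over all 16 arrays. Filled points have an adjusted p under 0.05, and every Kcnj3 point that uses day 1 is a description only. Kcnj3 has the widest intervals, and Rgs4 changes sign between day 1 (−0.92) and day 7 (1.25).

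Signals of cell type markers changed over the same days. The mean of 9 cardiomyocyte genes ranged from 16.90 to 17.12 in sham, 15.53 to 16.39 on day 1, 14.54 to 16.28 on day 3 and 16.49 to 16.63 on day 7. Of these genes 2 lay above 19, near the ceiling. The other 7 differed from sham by −1.25, −1.46 and −0.60 on average on days 1, 3 and 7. Less that change, Kcnj3 was −4.01, −2.73 and −1.65, Kcnj5 was −0.14, 0.12 and −0.56, and Chrm2 was 0.87, 0.37 and −0.24. Rgs4 was 0.33, 1.32 and 1.85, and Rgs6 was 0.60, 1.19 and 0.47. These values depend on the list, whose 7 genes changed unequally, on day 1 from −0.04 for Actn2 to −3.46 for Tcap. They do not tell cell share from RNA in each cell. Of the 9 genes 3, 4 and 1 were called lower, and 5, 5 and 4 without arrays 13 and 31, where the share over all genes is not given. Of 8 tested atrial cardiomyocyte genes 6 were called lower on day 1, 6 on day 3 and 1 on day 7. Single genes of these lists had differences near those of Kcnj3, among them Sln on day 1 (−5.09 ± 1.29) and the sarcomere gene Tcap on day 3 (−4.20 ± 0.56). Other atrial genes differed less. On days 1 and 3 Myl7 was −3.10 and −3.49, Dkk3 −3.13 and −2.70, and Kcnk3 −2.76 and −2.51. Tbx5 was −1.33 and −2.06, Nr2f2 −0.56 and −0.54, and Myl4 −0.37 and −0.30, while Nppa stood at the ceiling. The part of these genes in the falls of the channel genes was not tested.

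Like Rgs4, the fibroblast list had a mean below sham on day 1 and above it on day 7, but its genes did not share one course. The mean of 7 fibroblast genes ranged from 10.75 to 10.89 in sham, 9.03 to 10.10 on day 1, 9.78 to 11.31 on day 3 and 12.31 to 12.78 on day 7. Of the 7 genes 6 were called lower on day 1, 2 lower and 1 higher on day 3, and 4 higher and 1 lower on day 7. Gsn was lower on all 3 days (−1.50, −1.99 and −1.03), while the collagen gene Col1a1 was 3.98 on day 3 and 6.73 on day 7. The means of the smooth muscle and pericyte, endothelial and mesothelial lists differed from sham by −0.38, −0.33 and −0.81 on day 1 and by 0.57, 0.49 and 0.15 on day 7. Single genes went both ways. In the smooth muscle list Cnn1 was 1.65 and Abcc9 −2.47 on day 1, and Tagln was 2.52 and Abcc9 −1.58 on day 7. In the endothelial list Emcn was 0.85 and Tek −1.53 on day 1. The part of any of these lists in the course of Rgs4 was not tested. The mean of the neutrophil list was 4.49 to 4.65 in sham, 10.37 to 11.93 on day 1, 6.48 to 6.60 on day 3 without array 31, and 4.79 to 5.03 on day 7. Of its 6 genes 3 were not above background on most or all sham arrays (S100a8, Retnlg and Mmp8), so no size is read from it. The macrophage list differed from sham by 2.42, 3.26 and 3.01 on days 1, 3 and 7. Many nodal and nerve genes were at background. Of 9 sinoatrial node genes 4, Shox2 among them, were not above the median negative control on any of the 16 arrays, and the pacemaker channel gene Hcn4 was above it on 1 sham array only. Of 13 genes of cardiac neurons 10 were not above it, among them Chat, Slc5a7 and Slc18a3, which make and carry acetylcholine, so these could not be followed. Above it on all arrays were the nodal list's Smoc2, Tbx18 and Cacna1d, which differed from sham by −0.73, −0.19 and 0.76 on day 1 and by 0.33, 0.85 and 0.31 on day 7, and the nerve list's Stmn2 and Uchl1 (−0.60 and 0.20 on day 1, −0.09 and 0.46 on day 7). Of 4 Schwann cell genes 3 were not above it.

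**Figure D4:**
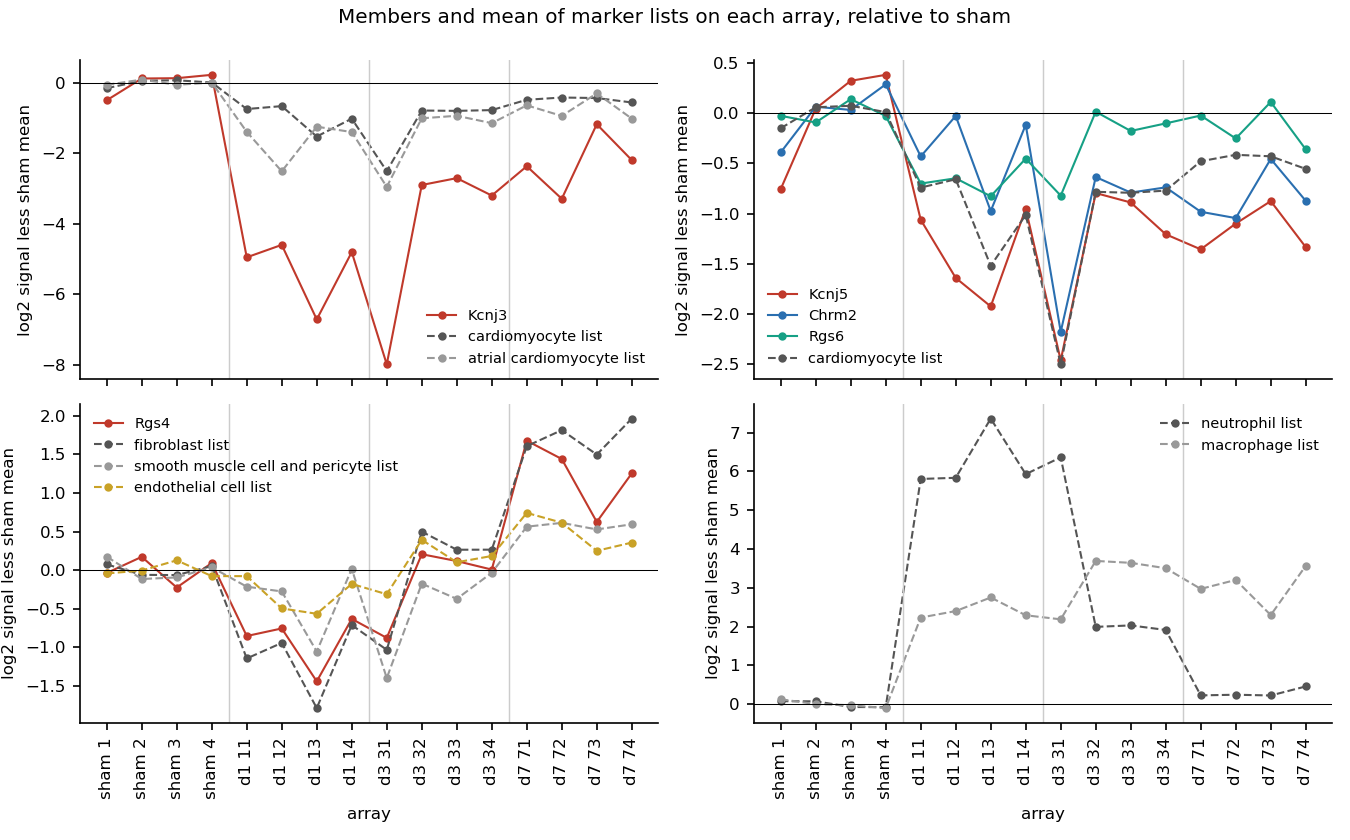
Log2 signal on each of the 16 arrays less its sham mean, for the 5 genes (solid) and the mean of cell type lists (dashed), with grey lines between groups. Lines only join the points of one series, and arrays within a group have no order. Kcnj3 lies further below sham than the means of the cardiomyocyte and atrial lists on all 12 infarction arrays, though these means hold genes at the ceiling and, for the atrial list, at background, and Rgs4 and the fibroblast list are both lowest on day 1 array 13 and high on day 7.

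Other genes of the pathway, from lists drawn up with earlier results of these data known, did not share one direction. The other GIRK genes Kcnj6 and Kcnj9 did not pass the filter. Of 11 other inward rectifier genes 6 were tested, and 4 were called lower on day 1, 4 on day 3 and 2 on day 7, with 0, 1 and 1 higher. The medians were −0.78, −0.82 and −0.44, against 0.06, 0.08 and −0.01 over all tested genes. The day 7 count of lower genes was 0 with each array's median subtracted and 4 without arrays 13 and 31. With medians subtracted, 78.6% of the 2556 day 7 calls over all tested genes were higher. Kcnj2, the main gene of the resting background current, was −2.44 ± 0.37 on day 1 and −2.04 ± 0.37 on day 3 (adjusted p 0.000182 and 0.000587) and −0.81 ± 0.37 on day 7 (adjusted p 0.135). Of the genes of ATP-sensitive channels, Kcnj11 fell on all 3 days (−1.18, −1.24 and −0.89, each ± 0.23) and Kcnj8, also a pericyte marker, fell on days 1 and 3 (−1.21 and −1.43 ± 0.23). Kcnj12 and Kcnj15, the remaining calls, had group means of 4.21 to 4.61 and 4.11 to 4.77, near the median negative control of 4.44 to 4.93, and no size is read from them.

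Of 8 other receptor genes, among them other muscarinic, sphingosine phosphate and somatostatin receptors, 4 were tested, with medians of −0.02, −0.10 and −0.16. Sstr4 was called lower on days 1 and 3 at a mean signal of 4.54, near background. S1pr1, the sphingosine phosphate receptor, differed from sham by 0.15, −0.18 and −0.18, and Chrm3, a muscarinic receptor that couples to Gq, by −0.05, −0.02 and −0.15, with no call.

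The genes of the G protein moved both ways. The median of the inhibitory alpha subunit genes was −0.07, 0.35 and 0.60 on days 1, 3 and 7, and −0.57, −0.14 and 0.47 after quantile normalisation. Of 4 tested inhibitory alpha subunit genes Gnai3 rose on all 3 days (1.10, 1.37 and 1.07, each ± 0.14) and Gnai2 rose on day 7 (0.99 ± 0.33, adjusted p 0.0387). Gnao1, the other inhibitory type, was −0.66 and −0.52 ± 0.18 on days 1 and 3. Of 10 tested beta and gamma genes 2, 3 and 2 were called lower and 2, 4 and 6 higher on days 1, 3 and 7, with medians of −0.05, 0.18 and 0.26. Gnb1 rose by 1.05, 1.38 and 1.03 (each ± 0.13), while Gnb5, the partner of RGS6, fell on all 3 days (−0.68, −0.54 and −0.35, each ± 0.11, adjusted p 0.000347, 0.00145 and 0.0365, limma). Gng2 was −0.86 and −0.71 ± 0.22 on days 1 and 3, Gng12 rose by 0.76, 0.47 and 0.59 ± 0.16, and Gnb4 rose on day 7 by 0.52 ± 0.10. After quantile normalisation 0, 2 and 2 of these genes were called higher, and 3, 3 and 0 lower. Over all tested genes 8617, 7223 and 3074 were then called on days 1, 3 and 7, and 30.7%, 35.8% and 59.1% of these calls were higher. As deposited 8678, 8049 and 4568 were called, with 52.9%, 53.8% and 60.0% higher. The same totals apply to the counts after quantile normalisation for the lists below.

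Among 12 tested RGS genes and partners 4, 4 and 1 were called lower and 5, 5 and 5 higher, with medians of 0.01, 0.04 and 0.07. After quantile normalisation the day 1 count was 6 lower and 3 higher, and the medians were −0.15, −0.09 and 0.06. Rgs2, which acts on Gq, was −1.56 and −1.82 ± 0.38 on days 1 and 3. Rgs5, a gene of pericytes and smooth muscle, was −1.78 and −2.14 ± 0.58, and −0.03 on day 7. Rgs1, Rgs16 and Rgs18, of which Rgs1 and Rgs18 are known from white blood cells, rose on all 3 days. Rgs1 had a mean of 4.50 in sham, at the median of the negative controls, and of 5.69, 6.84 and 6.67 on days 1, 3 and 7, so no size is read from it. Rgs16, with a sham mean of 4.86 that is also near background, was 1.02, 1.20 and 0.92 (each ± 0.23). Rgs18 was 0.78, 1.15 and 1.00 (each ± 0.26). Chosen after their values were seen, Rgs7 and the RGS7 anchor Rgs7bp were −0.84 ± 0.22 and −0.85 ± 0.14 on day 1, and −0.16 and −0.17 on day 7. RGS7, like RGS6, pairs with Gβ5.

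**Figure D5:**
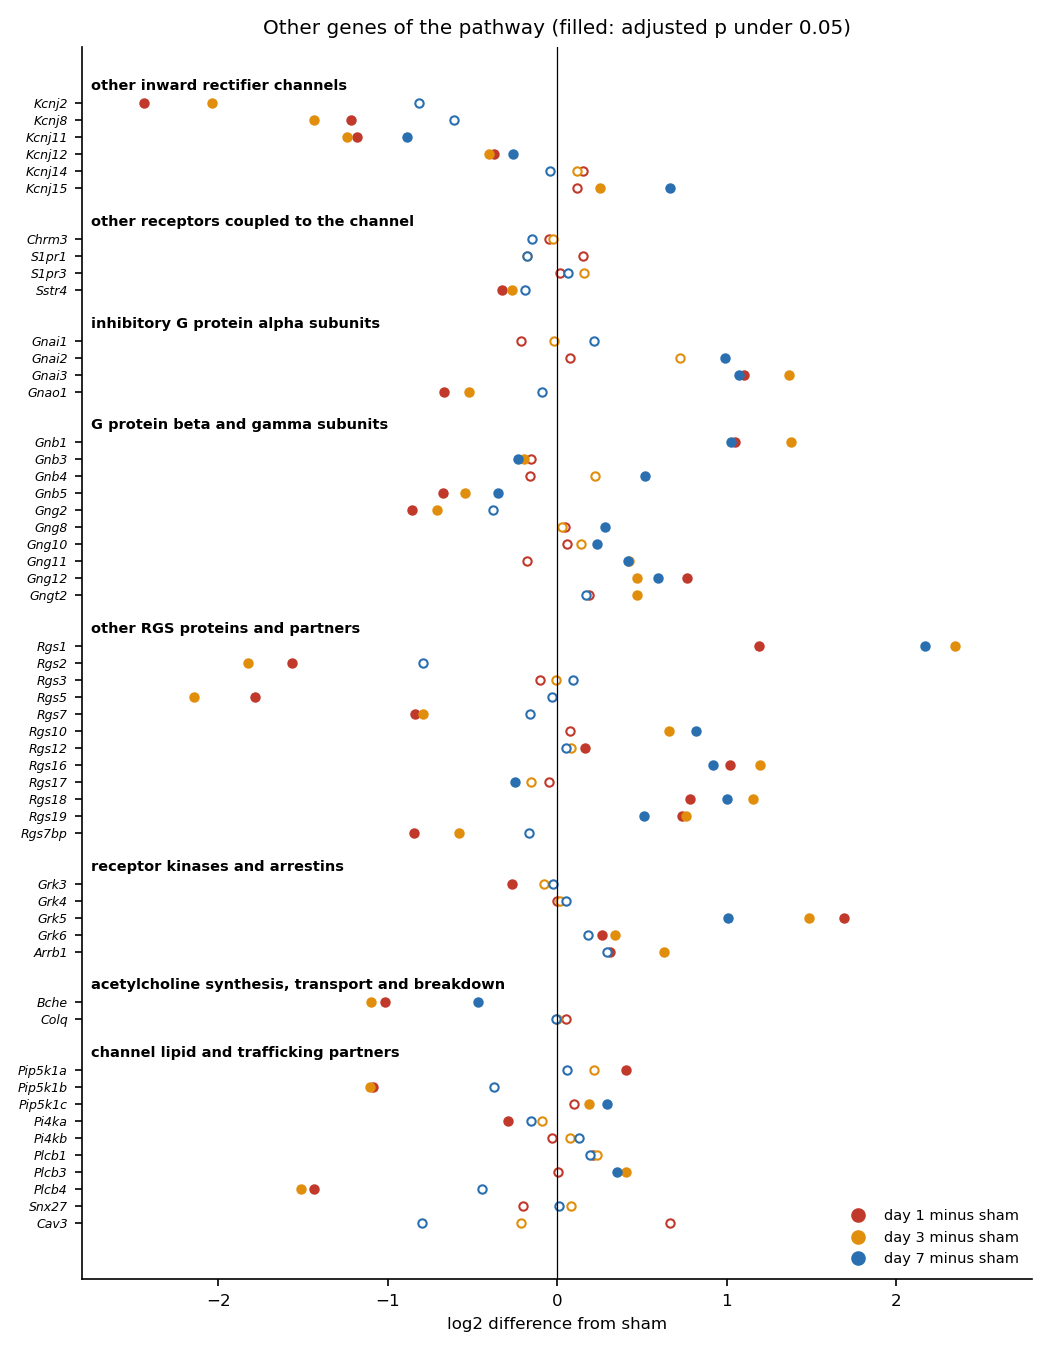
Log2 difference from sham of the other tested pathway genes on days 1, 3 and 7, grouped by list. Each point comes from 4 arrays against 4 sham arrays, and filled points have an adjusted p under 0.05 in limma. Kcnj2 is the lowest point (−2.44 on day 1) and Rgs1 the highest (2.35 on day 3), from a sham signal at background.

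Of 5 tested genes of receptor kinases and arrestins 3 were called higher on day 1, 3 on day 3 and 1 on day 7, and 1 lower on day 1, with medians of 0.26, 0.34 and 0.18. Grk5, a kinase that switches off activated receptors, rose by 1.69, 1.48 and 1.01 (each ± 0.23). Arrb1 was 0.31 and 0.63 ± 0.12 on days 1 and 3, and Grk3 was −0.26 ± 0.10 on day 1. Grk6 had means of 4.86 in sham, 5.13 on day 1 and 5.20 on day 3. These lie near the median negative control of 4.44 to 4.93, so no size is read from Grk6. After quantile normalisation 1 was called higher on day 1. Of 7 genes that make, carry or break down acetylcholine only Bche and Colq passed the filter. Bche, the butyrylcholinesterase that also splits acetylcholine, fell on all 3 days (−1.01, −1.10 and −0.46, each ± 0.12, adjusted p 2.19e-05, 8.7e-06 and 0.0108, limma).

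Of 10 genes of membrane lipid and trafficking partners 3, 2 and 0 were called lower and 1, 2 and 2 higher, with medians of −0.01, 0.08 and 0.03. Opening of the channel needs the lipid PIP2. Pip5k1b, a kinase that makes it, was −1.09 and −1.10 ± 0.38 and Plcb4, a lipase that splits it, was −1.44 and −1.51 ± 0.27 on days 1 and 3. Pip5k1a rose on day 1 (0.41 ± 0.08), Plcb3 on days 3 and 7 (0.41 and 0.35, each ± 0.09) and Pip5k1c on days 3 and 7 (0.19 and 0.29, each ± 0.07). Without arrays 13 and 31, 5 of the 10 were called higher on day 3 and 2 lower on day 7, and after quantile normalisation none was called higher on any day.

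For each gene the most similar courses were sought as the smallest root-mean-square distance over the 16 arrays, after subtracting each gene's sham mean. Nearest to Kcnj3 were Cabcoco1 (0.63), Lrtm1 (0.87) and Lrrc14b (0.94). Nearest to Kcnj5 were Mcrip2, Klhl7 and Ttc12, each at 0.30. Lias (0.20), Zfp445 (0.20) and Akap6 (0.22), an anchor of signalling kinases in heart muscle, lay nearest to Chrm2. For Rgs4 they were Pcdh18 (0.19), Naalad2 (0.21) and Ldlrad4 (0.29), and for Rgs6 Nxt2 (0.09), Snx32 (0.14) and Ccdc77 (0.14). The distances among the 5 genes ran from 0.60, for Kcnj5 and Chrm2, to 3.61, for Kcnj3 and Rgs4. All points of these distances share the same 16 arrays.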

How the data were processed

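Atrial RNA was measured on 16 single-colour arrays, 4 per group per the labels, which do not say whether tissue of several mice was pooled. The authors deposited log2 signals without missing values, made with Affymetrix Expression Console per the submitters' processing notes. Background correction, summarisation and scaling were not given in the sources used here. The labels name a 3′ array, but the row names are those of transcript clusters, so the array design is uncertain. Of 72688 rows 6732 were controls and 30604 carried 1 gene symbol.

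Genes entered the test when their signal exceeded the array's median row on 4 or more of the 16 arrays. One mean per group was fitted with limma 3.58.1 in R 4.3.3 (lmFit, eBayes with trend), with Benjamini-Hochberg adjustment over 18418 genes within each comparison. Pairs of genes were compared with exact permutation tests. The fit was run on simulated data with independent normal spread, the same SD in all groups and a set day 1 shift in some genes. These data held no array that stands apart, as 13 and 31 do, so the run checks the code only. The number of arrays limits the precision. Pathway genes named outside the set are, apart from Rgs7 and Rgs7bp, per list and day, the 3 called genes with the largest difference, or the 2 with the highest mean where none was called, and the 3 nearest courses per gene. The genes, the lists and the tests were chosen with earlier results of these data known. Alternatives were quantile or median scaling, other filters, no trend, array weights, 2-group fits, and leaving out arrays 13 and 31 or each array in turn. Scaling and exclusion for the pathway lists were added after seeing the data. Promoter sequences are from RefSeq, GRCm38.p6.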

Additional observations from a re-analysis of the deposited data

Results flagged for a closer look

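In 28 groups of 4 values (the 5 genes and 2 gene pairs), 7 had an extreme array whose gap to the nearest other was above Dixon's 95% critical share of the group's range, where chance gives about 1 in 20. Day 3 array 31 was lowest for Kcnj3 (5.50), for Chrm2 (8.30) and for Kcnj3 minus Kcnj5 (−0.18). Day 1 array 13 was lowest for Kcnj3 (6.77) and for Rgs4 minus Rgs6 (0.22). Sham array 1 was lowest for Kcnj3 (12.99) and day 7 array 73 for Rgs4 minus Rgs6 (1.34).

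The change from sham also differed between days, by the limma test of the difference itself. Between day 3 and day 7 it did so for Rgs4 (1.39). Between day 1 and day 7 it did so for Rgs4 (2.17) and Rgs6 (0.53). The same difference of Kcnj3 (3.01) is a description, because its low day 1 values were known when the gene was chosen.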

How the results depend on the processing

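The counts of genes called on day 1 (4) and day 3 (3) against sham and between day 3 and day 7 (1) were the same with any 1 array left out. On day 7 against sham 2 of the 5 genes were called, 1 with each array's median subtracted, and 4 with array weights, with only the 2 groups in the fit, or without arrays 13 and 31. Leaving out 1 array gave 1 to 4. Between day 1 and day 3 the count went from 0 to 4 with array weights or without arrays 13 and 31, and to 0 to 3 with 1 array left out. Between day 1 and day 7 it was 3, 4 with array weights or without arrays 13 and 31, where Chrm2 was called lower, and 1 to 3 with 1 array left out. The counts that use day 1 include Kcnj3. Over all tested genes 4568 were called on day 7 against sham as deposited and 2556 with medians subtracted. For array weights, 2-group fits and left-out arrays such totals are not given. Counts under those settings, here and for the gene lists above, are therefore not read as results about the named genes.

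Leaving out 1 array moved Kcnj3 minus Kcnj5 to −4.17 to −3.56 on day 1, −3.20 to −1.97 on day 3 and −1.35 to −0.72 on day 7, and Rgs4 minus Rgs6 on day 7 to 1.26 to 1.67. Without any 1 of the sham arrays the adjusted p of these exact permutation tests was 0.0571 to 0.0857, so no call held. With any 1 infarction array left out the calls held. Leaving out a sham array changes every test of the family, while leaving out an infarction array changes only the tests of its day. How much of the difference comes from this was not tested.

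Only differences that were not called changed sign. With array weights Rgs4 was 0.063 on day 3 against sham, Kcnj5 −0.19, Chrm2 −0.17 and Rgs6 −0.046 from day 3 to day 7, and Kcnj5 −0.025 from day 1 to day 7. Without arrays 13 and 31, or without array 31 alone, Rgs4 was 0.11 on day 3, and Kcnj5 −0.20, Chrm2 −0.12 and Rgs6 −0.043 from day 3 to day 7. With any 1 array left out, Rgs4 on day 3 ranged from −0.25 to 0.11, and from day 3 to day 7 Kcnj5 ranged from −0.20 to 0.35, Chrm2 from −0.12 to 0.40 and Rgs6 from −0.043 to 0.24. From day 1 to day 3 Kcnj5 ranged from −0.12 to 0.43, below 0 without array 12, 13, 32 or 33. The cause was not tested.

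Scaling moved the median of all genes. On day 1 it was 0.06 as deposited, −0.15 after quantile normalisation and −0.09 with medians subtracted, and on day 3 it was 0.08, −0.07 and 0.00. From day 1 to day 7 it was −0.03, 0.16 and 0.16, and from day 3 to day 7 −0.05, 0.08 and 0.07. The share of calls that were higher went from 52.9% to 30.7% on day 1 and from 53.8% to 35.8% on day 3 with quantile normalisation, and from 60.0% to 78.6% on day 7 with medians subtracted. With quantile normalisation and with medians subtracted it was 58.3% and 42.2% from day 3 to day 7 (32.1% as deposited) and 73.8% and 70.9% from day 1 to day 7 (51.8%).

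Signal over background was low for Kcnj5, Rgs4 and Rgs6, with 64.6%, 70.8% and 66.2% of negative control rows below them on their lowest array, and for Kcnj3 on array 31 (61.4%). Averaging several rows per gene could not be run, since each gene has 1 row. No paired analysis was possible because the groups share no replicate numbers.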
